A study of Mus musculus with 15 samples.

Results

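Of the 55487 genes in the deposited gene table, 39 were taken by symbol as a module of lysosomal genes: 31 enzymes with their cofactors, 6 membrane proteins, and the transcription factors Tfeb and Tfe3. All 39 symbols were found in the table. They were measured, as counts per 1000000 total gene counts of the library (CPM), by RNA-seq of polyA RNA in TTF cells, a common abbreviation for tail-tip fibroblasts, and all libraries came from female C57BL6/CAST hybrid mice. The knockout columns named S7_KO carry the numbers 2, 9 and 22, which are those of 3 numbered SIRT7-KO samples in the labels, and are called KO 2, 9 and 22. The labels also hold a second SIRT7-KO group of 3 replicates without such numbers, and the columns may be those libraries instead; the genotype is the same in both. The wild-type libraries are 3 WT replicates, called WT 1, 2 and 3. The sources used here do not give the age of the mice. SIRT7 is a nuclear deacylase of the sirtuin family, and a hybrid cell lets part of its reads be assigned to one parental genome, called genome 1 or genome 2 in the table.

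The wild-type libraries resembled repeats of 1 line in their allele shares, while the knockout columns carry different numbers and differed in these shares, so line and genotype cannot be told apart. The labels leave unsettled whether KO and WT libraries share a sequencing run, and do not tie libraries to animals, so the p-values below measure only the spread between these libraries. The gene counts of Sirt7 itself were 512, 694 and 787 in KO 2, 9 and 22, against 833, 1107 and 598 in WT 1, 2 and 3. Its full-length coding transcript was estimated at 2, 0 and 0 counts in KO, against 53, 58 and 159 counts in WT. Total gene counts lay between 61068884 and 61476367 in KO and between 61065582 and 61506413 in WT. Fibroblast markers were present, with Col1a1 at 11534, 14065 and 15827 CPM in KO 2, 9 and 22, against 7383, 7449 and 7390.3 CPM in WT 1, 2 and 3, whereas Thy1 stood at 21.6, 0.195 and 71.5 CPM in KO 2, 9 and 22, against 101, 98.6 and 98.9 CPM in WT 1, 2 and 3.

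Lysosomes are acidic organelles in which proteases, glycosidases, sulfatases and lipid hydrolases break down what the cell takes up or recycles by autophagy. Most of the soluble enzymes are tagged with mannose 6-phosphate in the Golgi and carried to the lysosome by receptors, and the membrane proteins shield the organelle's own wall and move products out. TFEB and TFE3 are transcription factors that bind the CLEAR motif, built around the letters CACGTG, before many lysosomal genes. Their activity depends largely on phosphorylation and entry into the nucleus, which RNA levels do not measure.

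RefSeq promoter windows of GRCm38.p6, running from 250 bases before to 50 after a transcription start, were held for 35 of the 39 members. Asah1, Ctsb, Ctsh and Galns had none in the table. The letters CACGTG, which read the same on both strands, occurred in a window of 12 members (34.3%) and of 8.09% of all 27025 genes with a window. These 12 were Arsa, Cln3, Ctsa, Ctsd, Ctsl, Gla, Glb1, Lamp1, Lgmn, Mcoln1, Naglu and Sgsh. The longer palindrome TCACGTGA, which contains the first motif, occurred in Cln3, Ctsa, Ctsd, Gla and Mcoln1 (14.3% of the members) and in 1.12% of all genes. The shorter motif was held by 3 of the 8 members higher in KO and by 9 of the 27 other tested members with a window. The 250 bases before the start are shown for Lamp1, Lgmn and Glb1, which were higher in KO and hold the motif, for Mcoln1, which holds both motifs and was not past the test, and for Psap, which was higher in KO and has no match. Capitals mark CACGTG, or TCACGTGA where the longer motif is met. They lie at chr8:13158911-13159160 (plus strand), chr12:102439093-102439342 (minus strand), chr9:114400828-114401077 (plus strand), chr8:3500269-3500518 (plus strand) and chr10:60277378-60277627 (plus strand).
Lamp1: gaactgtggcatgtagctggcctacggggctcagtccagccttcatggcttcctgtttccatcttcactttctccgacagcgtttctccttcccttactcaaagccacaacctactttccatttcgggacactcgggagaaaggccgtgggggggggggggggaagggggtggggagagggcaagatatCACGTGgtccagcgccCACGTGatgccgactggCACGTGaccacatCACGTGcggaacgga
Lgmn: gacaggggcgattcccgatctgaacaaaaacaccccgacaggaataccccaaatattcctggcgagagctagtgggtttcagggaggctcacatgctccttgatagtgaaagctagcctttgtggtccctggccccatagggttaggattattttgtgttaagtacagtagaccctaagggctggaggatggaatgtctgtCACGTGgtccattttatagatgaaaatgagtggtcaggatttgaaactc
Glb1: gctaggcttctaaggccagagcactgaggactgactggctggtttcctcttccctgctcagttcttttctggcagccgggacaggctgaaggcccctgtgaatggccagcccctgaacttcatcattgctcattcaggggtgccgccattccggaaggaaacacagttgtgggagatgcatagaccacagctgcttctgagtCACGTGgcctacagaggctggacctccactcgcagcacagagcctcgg
Mcoln1: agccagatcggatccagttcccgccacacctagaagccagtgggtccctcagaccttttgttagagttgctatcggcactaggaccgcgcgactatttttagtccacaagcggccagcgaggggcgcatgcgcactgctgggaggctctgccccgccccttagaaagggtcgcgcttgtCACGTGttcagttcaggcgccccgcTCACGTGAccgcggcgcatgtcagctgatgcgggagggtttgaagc
Psap: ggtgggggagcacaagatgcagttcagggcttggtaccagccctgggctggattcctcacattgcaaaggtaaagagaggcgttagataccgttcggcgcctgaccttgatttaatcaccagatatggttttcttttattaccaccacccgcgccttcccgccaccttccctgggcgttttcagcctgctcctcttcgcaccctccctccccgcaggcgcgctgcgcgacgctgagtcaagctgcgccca

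The Lamp1 window holds 4 copies, whose first bases lie 61, 45, 28 and 15 bases before the start, and the copies of Lgmn and Glb1 begin 49 and 48 bases before it. Lgmn has 2 windows in the table and the motif is in the one printed; which start these cells used was not analysed here. A match in a window is a string of letters and does not show that a factor binds there.

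The question put to the knockout lines was which of the 39 genes differed in RNA level without SIRT7. Together they took 0.694%, 0.730% and 0.696% of all gene counts in KO 2, 9 and 22, against 0.561%, 0.579% and 0.573% in WT 1, 2 and 3. The knockout libraries were all higher, and the groups did not overlap. Psap was the largest single contribution to this sum; without it the sum was 4743, 4936 and 4807 CPM in KO 2, 9 and 22, against 4059, 4216 and 4172 CPM in WT 1, 2 and 3. In bulk RNA such a sum cannot tell more RNA per cell from a different mix of cells.

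The change across the module was modest in size and mostly upward. Of 38 members with enough counts for the edgeR quasi-likelihood test, 8 were higher in KO and 1 was lower at an adjusted p under 0.05, and 29 did not pass. Among all 16678 genes tested, 3.54% were called higher and 3.19% lower. The log2 fold changes had a median of 0.30 over the 38 members and of 0.02 over all genes tested, and 29 of 38 were positive, against 51.5% of all genes tested. Every KO library lay above every WT library in CPM for 18 members, against 15.7% of all genes tested. Every KO library lay below every WT library for 4 members, against 20.2% of all genes tested. Leaving out any 1 WT library ended all 9 calls. The edgeR test then called 0 members in either direction and at most 51 of all genes tested, with 11 to 14 members at an unadjusted p under 0.05, while the log2 fold changes of the 8 moved by at most 0.036. Of all genes tested, 2882 of 17234, 3002 of 17203 and 2905 of 17199 had such a p without WT 1, 2 and 3. Of the KO libraries, KO 2 and KO 9 were each needed for Arsb, KO 9 for Lamp1 and KO 2 for Cln3.

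**Figure D1:**
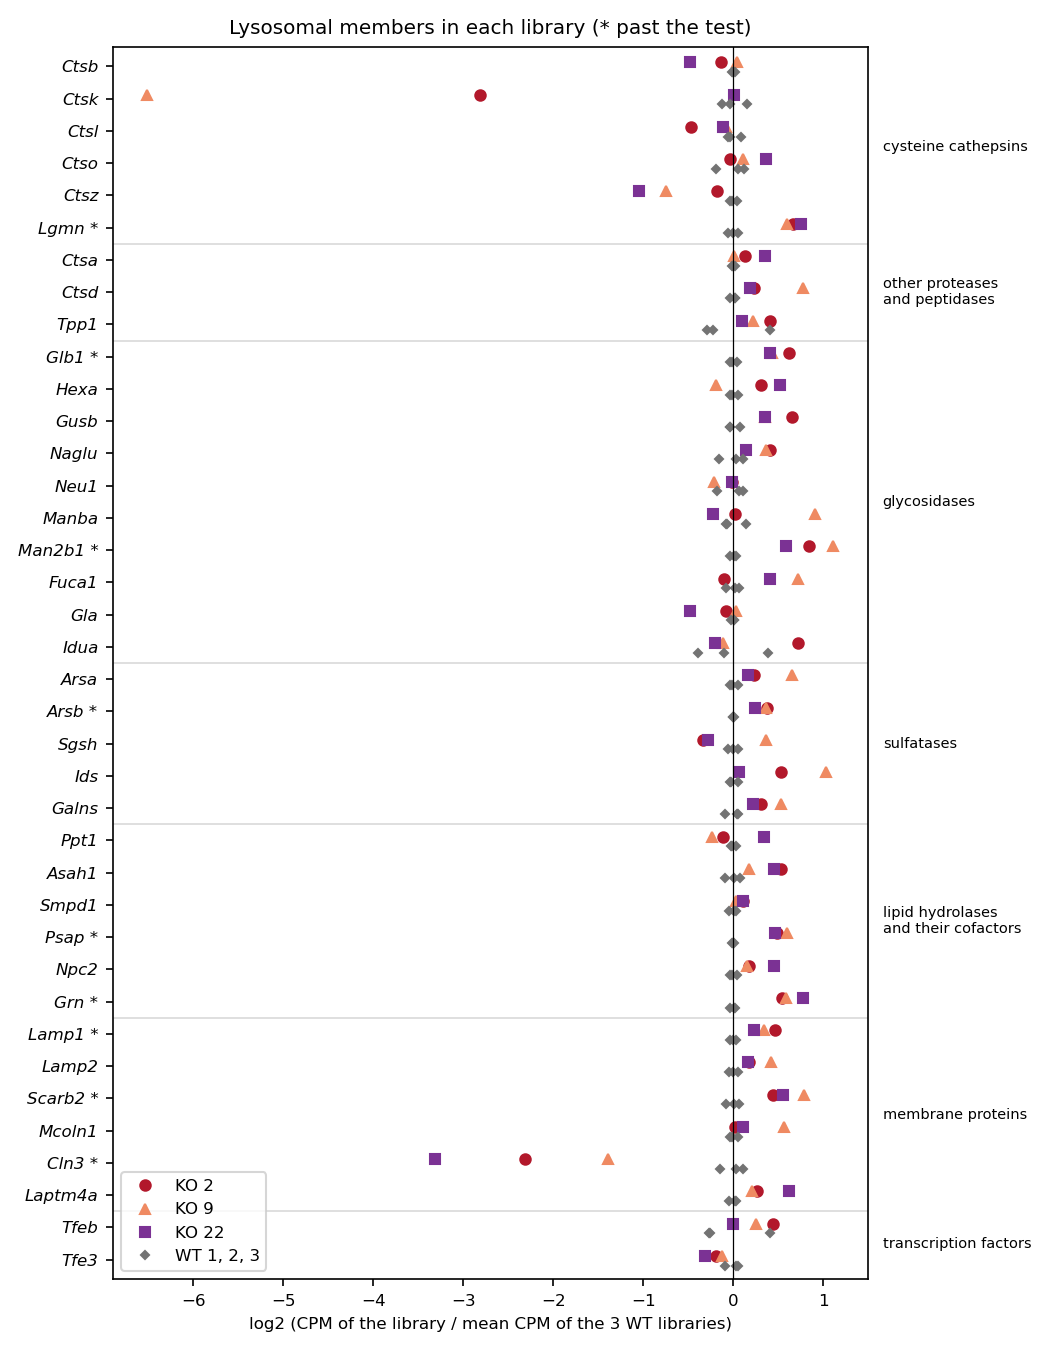
Log2 ratio of each library's CPM to the mean CPM of the WT libraries (x axis) for the 38 tested members (rows, grouped by role); coloured markers are KO 2, 9 and 22 and grey diamonds the 3 WT libraries. An asterisk marks the 9 members past the test; Ctsk and Cln3 reach far to the left in KO, while most others lie within 1 log2 unit.

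The lipid hydrolases and their cofactors held the most abundant member, and of these 6 genes 2 were higher, 0 were lower and 4 did not pass. Psap, the precursor that is cut into saposins, which help sphingolipid hydrolases reach their substrates, had 2197, 2361 and 2155 CPM in KO 2, 9 and 22, against 1555, 1575 and 1563 CPM in WT 1, 2 and 3. All KO libraries lay above all WT libraries (adjusted p = 0.0155, log2 fold change 0.55 with SE 0.07). The gene spans chr10:60277627-60302597 in GRCm38, and its main transcript, Psap-202, was the only 1 of 108 tested member transcripts past the transcript-level test (adjusted p = 0.0420, log2 fold change 0.56 with SE 0.06). Among all 44821 transcripts tested, 0.154% were called higher and 0.181% lower. Only member transcripts matched to the annotation were read. These held 85.2% of the gene counts of Grn and 3.31% of those of Gla, and at least 90% for 37 members. Grn, whose product progranulin is processed in lysosomes to granulins, had 157, 163 and 185 CPM in KO 2, 9 and 22, against 106, 109 and 110.1 CPM in WT 1, 2 and 3. For Grn the log2 fold change was 0.67 (SE 0.10, adjusted p = 0.0193). The groups of Grn did not overlap. Npc2, which carries cholesterol inside the lysosome, averaged 233 ± 27.8 CPM in KO and 193 ± 5.14 CPM in WT (SD, n = 3 each). It did not pass (adjusted p = 0.153, log2 fold change 0.30 with SE 0.11). Asah1, acid ceramidase, averaged 119 ± 14.8 CPM in KO and 90.4 ± 5.07 CPM in WT (SD, n = 3 each), and did not pass either (adjusted p = 0.0728, log2 fold change 0.43 with SE 0.11). Both had all KO libraries above all WT libraries. Smpd1, acid sphingomyelinase, and Ppt1, a palmitoyl-protein thioesterase, had log2 fold changes of 0.11 and 0.06 with overlapping groups.

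Among the 6 membrane proteins, 2 were higher, 1 was lower and 3 were not past the test. Lamp1, a heavily glycosylated protein of the lysosomal membrane, had 956, 878 and 813 CPM in KO 2, 9 and 22, against 679.5, 709 and 693 CPM in WT 1, 2 and 3. For Lamp1 the log2 fold change was 0.38 (SE 0.08, adjusted p = 0.0451). It spans chr8:13159161-13175338 in GRCm38, and the promoter with 4 copies of CACGTG shown above is its own. Scarb2, the receptor that takes glucocerebrosidase to the lysosome, had 64.2, 82.1 and 69.8 CPM in KO 2, 9 and 22, against 44.8, 49.6 and 47.8 CPM in WT 1, 2 and 3. For Scarb2 the log2 fold change was 0.64 (SE 0.12, adjusted p = 0.0330). Neither gene's groups overlapped. Laptm4a, a membrane protein with several spans, had 599, 576 and 765 CPM in KO 2, 9 and 22, against 481, 509 and 503 CPM in WT 1, 2 and 3. For Laptm4a the log2 fold change was 0.41 (SE 0.13, adjusted p = 0.111). Mcoln1, a calcium-permeable channel of the lysosome, was at 35.1 ± 7.51 CPM in KO and 29.4 ± 0.922 CPM in WT (SD, n = 3 each), with KO 9 furthest above WT. It did not pass (adjusted p = 0.315, log2 fold change 0.29 with SE 0.16). Cln3, a lysosomal membrane protein mutated in juvenile neuronal ceroid lipofuscinosis in humans, was scarce, at 30, 57 and 15 counts in KO 2, 9 and 22, against 161, 135 and 153 counts in WT 1, 2 and 3. It was the only member past the test downward (adjusted p = 0.0482, log2 fold change -2.11 with SE 0.46), and every KO library lay below every WT library. Its counts were spread over 14 annotated transcripts, of which only Cln3-202 was tested and did not pass (log2 fold change -1.43, adjusted p = 0.493).

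Of the 10 glycosidases, which remove sugars from glycoproteins and glycolipids, 2 were higher, 0 were lower and 8 did not pass. Man2b1, lysosomal alpha-mannosidase, had the largest upward log2 fold change of the module, with 52.5, 63.3 and 44.0 CPM in KO 2, 9 and 22, against 29.5, 29.8 and 28.5 CPM in WT 1, 2 and 3. For Man2b1 the log2 fold change was 0.89 (SE 0.14, adjusted p = 0.0227). Glb1, the lysosomal beta-galactosidase, had 41.4, 36.5 and 35.8 CPM in KO 2, 9 and 22, against 26.3, 27.8 and 26.8 CPM in WT 1, 2 and 3. For Glb1 the log2 fold change was 0.52 (SE 0.10, adjusted p = 0.0336). KO lay above WT in every library for both. Gusb, beta-glucuronidase, averaged 42.3 ± 5.11 CPM in KO and 30.7 ± 1.40 CPM in WT (SD, n = 3 each) and lay just outside the threshold (adjusted p = 0.0540, log2 fold change 0.49 with SE 0.11). Naglu, an N-acetylglucosaminidase of heparan sulfate breakdown, also had separate groups but was not past the test (adjusted p = 0.141, log2 fold change 0.34 with SE 0.12). The others, Hexa (0.28), Fuca1 (0.41), Manba (0.35), Idua (0.22), Neu1 (-0.04) and Gla (-0.13), are given by their log2 fold changes and had overlapping groups. The summed level of the 10 genes was 369, 368 and 368 CPM in KO 2, 9 and 22, against 287, 285 and 286 CPM in WT 1, 2 and 3.

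Of the 5 sulfatases, which remove sulfate from glycosaminoglycans and sulfolipids, 1 was higher, 0 were lower and 4 did not pass. Arsb, which acts on dermatan and chondroitin sulfate, had 89.7, 89.1 and 82.1 CPM in KO 2, 9 and 22, against 69.7, 69.2 and 69.1 CPM in WT 1, 2 and 3. For Arsb the log2 fold change was 0.36 (SE 0.08, adjusted p = 0.0469). The WT values of Arsb lay within 1 CPM of each other and all KO values stood above them. Arsa had a log2 fold change of 0.40, Galns 0.39 and Ids 0.63, each with KO above WT in every library and none past the test. Sgsh had -0.01, with KO 9 above and KO 2 and 22 below all WT libraries.

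The cysteine cathepsins, proteases that degrade most proteins reaching the lysosome, were grouped with Lgmn, a cysteine protease that is not a cathepsin. Of these 7 genes, 1 was higher, 0 were lower, 5 were not past the test and Ctsh was not tested. Their summed level, Lgmn included, was 908, 985 and 873 CPM in KO 2, 9 and 22, against 1023, 1075 and 1038 CPM in WT 1, 2 and 3. Every KO library lay below every WT library. Lgmn, legumain, which cuts after asparagine and processes cathepsins, was the one that was higher, with 122, 117 and 130.2 CPM in KO 2, 9 and 22, against 74.5, 80.0 and 77.4 CPM in WT 1, 2 and 3. For Lgmn the log2 fold change was 0.71 (SE 0.09, adjusted p = 0.0123). It had the smallest adjusted p of the module. Ctsb had 399, 451 and 314 CPM in KO 2, 9 and 22, against 435, 435 and 442 CPM in WT 1, 2 and 3, with overlapping groups. For Ctsb the log2 fold change was -0.14 (SE 0.13, adjusted p = 0.537). Ctsl had 248, 324 and 316 CPM in KO 2, 9 and 22, against 329, 363 and 334 CPM in WT 1, 2 and 3, with KO lower in every library by a margin that did not pass. For Ctsl the log2 fold change was -0.18 (SE 0.13, adjusted p = 0.431). Ctsz had 130.2, 88.1 and 71.1 CPM in KO 2, 9 and 22, against 146, 151 and 144 CPM in WT 1, 2 and 3, again with KO lower in every library and KO 2 near WT. For Ctsz the log2 fold change was -0.58 (SE 0.20, adjusted p = 0.133); without KO 2 it passed the test (log2 fold change -0.85, adjusted p = 0.0179). Ctso had a log2 fold change of 0.19. Ctsh was near the detection floor with 5, 5 and 10 counts in KO 2, 9 and 22, against 4, 2 and 7 counts in WT 1, 2 and 3.

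Ctsk, the collagen-degrading cathepsin best known from osteoclasts and also made by fibroblasts, differed widely between the knockout libraries and is described here because of those values. It had 5.29, 0.407 and 37.3 CPM in KO 2, 9 and 22, against 34.0, 41.2 and 36.1 CPM in WT 1, 2 and 3, so KO 22 lay among the WT libraries, while KO 2 and KO 9 were far below. With that spread the difference was not past the test (adjusted p = 0.540, log2 fold change -1.32 with SE 1.22). The osteoclast markers Calcr, Dcstamp and Ocstamp were at 0 in all 6 libraries. Of the 8 listed osteoclast markers, 4 were tested, with a median log2 fold change of -0.78 and 0 past the edgeR test. At an unadjusted p under 0.05, 1 was lower, and DESeq2 called 1 lower. Summed over all 8 osteoclast markers, the level was 64.8, 131 and 66.2 CPM in KO 2, 9 and 22, against 121, 123 and 123 CPM in WT 1, 2 and 3.

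The remaining proteases were not past the test. Ctsd, the main aspartic protease of lysosomes, had 366, 531 and 355 CPM in KO 2, 9 and 22, against 303, 315 and 316 CPM in WT 1, 2 and 3, with all KO libraries above WT and KO 9 furthest. For Ctsd the log2 fold change was 0.45 (SE 0.16, adjusted p = 0.141). Ctsa, a serine carboxypeptidase that also protects Glb1 and Neu1 proteins, had 246, 226 and 288 CPM in KO 2, 9 and 22, against 224, 227 and 222 CPM in WT 1, 2 and 3. For Ctsa the log2 fold change was 0.21 (SE 0.11, adjusted p = 0.304). Tpp1, a tripeptidyl peptidase, had 67.4, 59.1 and 54.3 CPM in KO 2, 9 and 22, against 41.6, 43.4 and 67.3 CPM in WT 1, 2 and 3. For Tpp1 the log2 fold change was 0.28 (SE 0.20, adjusted p = 0.427). WT 3 stood apart for Tpp1: the retained-intron transcript Tpp1-206 was estimated at 3074 counts there, against 455 in WT 1 and 647 in WT 2, and at 2853, 2592 and 2251 in KO 2, 9 and 22.

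Neither transcription factor was past the test at the RNA level. Tfeb had 17.0, 14.9 and 12.6 CPM in KO 2, 9 and 22, against 10.5, 10.4 and 16.6 CPM in WT 1, 2 and 3, and WT 3 lay within the KO range. For Tfeb the log2 fold change was 0.27 (SE 0.22, adjusted p = 0.490). Tfe3 had 70.4, 74.1 and 64.9 CPM in KO 2, 9 and 22, against 83.9, 82.1 and 75.9 CPM in WT 1, 2 and 3, with every KO library below every WT library. For Tfe3 the log2 fold change was -0.18 (SE 0.09, adjusted p = 0.270). Their relative Mitf was lower, with 3.82, 7.22 and 5.21 CPM in KO 2, 9 and 22, against 13.3, 13.8 and 15.5 CPM in WT 1, 2 and 3. For Mitf the log2 fold change was -1.36 (SE 0.25, adjusted p = 0.0329).

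Tfe3, Lamp2, Ids and Gla are the X-linked members. Lamp2, the second abundant glycoprotein of the lysosomal membrane, had 206, 244 and 205 CPM in KO 2, 9 and 22, against 177, 182 and 189.5 CPM in WT 1, 2 and 3, without overlap. For Lamp2 the log2 fold change was 0.29 (SE 0.10, adjusted p = 0.125). Ids, iduronate sulfatase, had 51.5, 72.8 and 37.3 CPM in KO 2, 9 and 22, against 35.0, 34.8 and 36.9 CPM in WT 1, 2 and 3, and KO 22 lay only just above WT. For Ids the log2 fold change was 0.63 (SE 0.23, adjusted p = 0.144). Gla, alpha-galactosidase, had 13.8, 14.9 and 10.5 CPM in KO 2, 9 and 22, against 14.4, 14.8 and 14.8 CPM in WT 1, 2 and 3. For Gla the log2 fold change was -0.13 (SE 0.15, adjusted p = 0.627). No X-linked member was past the test. Their allele-assigned counts came almost wholly from genome 2 in all 6 libraries: the genome 1 share of Lamp2 was 0.116%, 0.158% and 0.159% in KO 2, 9 and 22, against 0.0931%, 0.236% and 0.0859% in WT 1, 2 and 3, over 3222 to 4440 counts. The exception was Tfe3 in WT 3, where 8 of 210 counts, or 3.81%, came from genome 1. That share rests on 1 library, and the allele-assigned counts of Tfe3 varied widely. They were 159, 1763 and 154 in KO 2, 9 and 22 and 2168, 285 and 210 in WT 1, 2 and 3. For Gla no count of 135 to 174 came from genome 1, which allows a share of up to 2.22% in the shallowest library, KO 22. These limits cover counting error only.

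Compared per unit of exon length, the members spanned over 4 orders of magnitude in level. Scaled to a total of 1000000, the level of Psap was 2286 ± 122 in KO and 1519.8 ± 9.67 in WT (SD, n = 3 each). The next in order were Laptm4a with 1025 ± 185 in KO and 749 ± 22.2 in WT, Lamp1 with 923 ± 51.5 in KO and 692 ± 14.7 in WT, and Ctsd with 498 ± 119 in KO and 353 ± 8.38 in WT. Laptm4a and Lamp1 did not differ beyond their spread in KO. Ctsz followed with 187 ± 53.9 in KO and 272 ± 6.74 in WT and Ctsb with 179.5 ± 30.6 in KO and 193 ± 2.06 in WT, which lay within each other's spread in KO but not in WT. Ctsa with 151 ± 21.5 in KO and 127 ± 1.24 in WT and Ctsl with 128 ± 20.8 in KO and 141 ± 7.35 in WT completed the 8 highest. Counting per transcript length in place of exon length kept the same 8 genes, in another order. Cln3, with 0.268 ± 0.168 in KO and 1.13 ± 0.103 in WT, and Ctsh, with 0.0682 ± 0.0312 in KO and 0.0419 ± 0.0243 in WT, were the lowest.

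**Figure D2:**
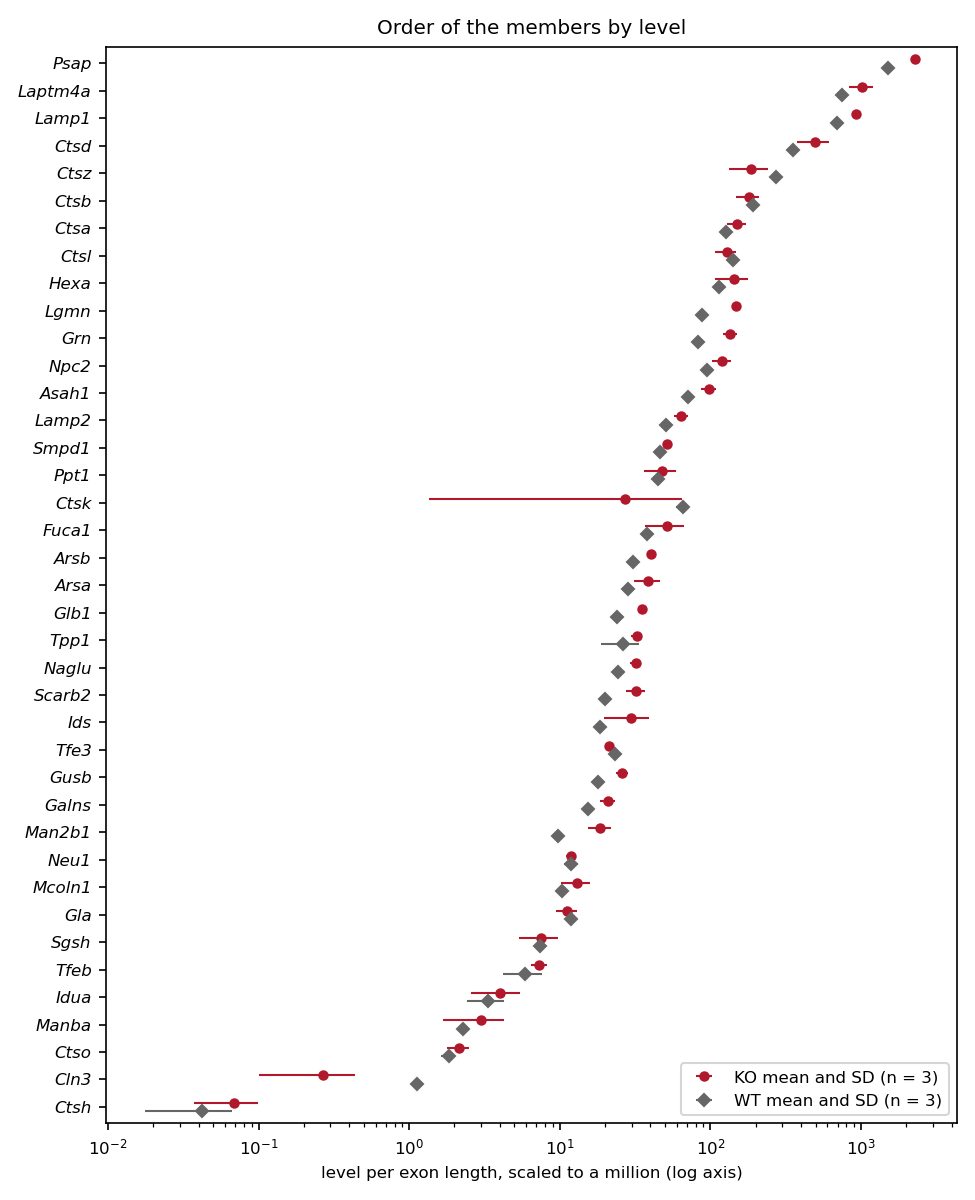
Level per exon length scaled to 1000000 (x axis, log scale) for all 39 members in order of their mean; red circles are KO means and grey diamonds WT means, with bars of 1 SD over 3 libraries, shortened on the left where the SD exceeds the mean. Psap is highest in both groups, and the KO bar of Ctsk is the widest.

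Members were set beside the genes around them, since whole chromosomes differed: the median log2 fold change was 0.20 on chromosome 8, which holds 5 members, and -0.29 on chromosome 17, which holds Neu1 and Tfeb. The median log2 fold change of the tested genes within 5 Mb was 0.23 at Lamp1, 0.21 at Glb1, 0.20 at Arsb and 0.17 at Man2b1. It was 0.13 at Psap, 0.09 at Lgmn, 0.09 at Scarb2 and -0.01 at Grn. With each chromosome's median taken out, Lgmn, Psap, Grn, Man2b1 and Scarb2 still passed, with adjusted p between 0.0231 and 0.0495. Lamp1 (adjusted p = 0.256), Arsb (0.286), Glb1 (0.103) and Cln3 (0.0623) no longer did. The log2 fold change of Cln3 hardly moved, from -2.11 to -2.06. It went from 0.38 to 0.18 for Lamp1, from 0.36 to 0.16 for Arsb and from 0.52 to 0.34 for Glb1. Over all 16678 genes tested, the calls in either direction fell from 1123 to 670. Asah1, with a log2 fold change of 0.43, had neighbours with a median of 0.40.

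**Figure D3:**
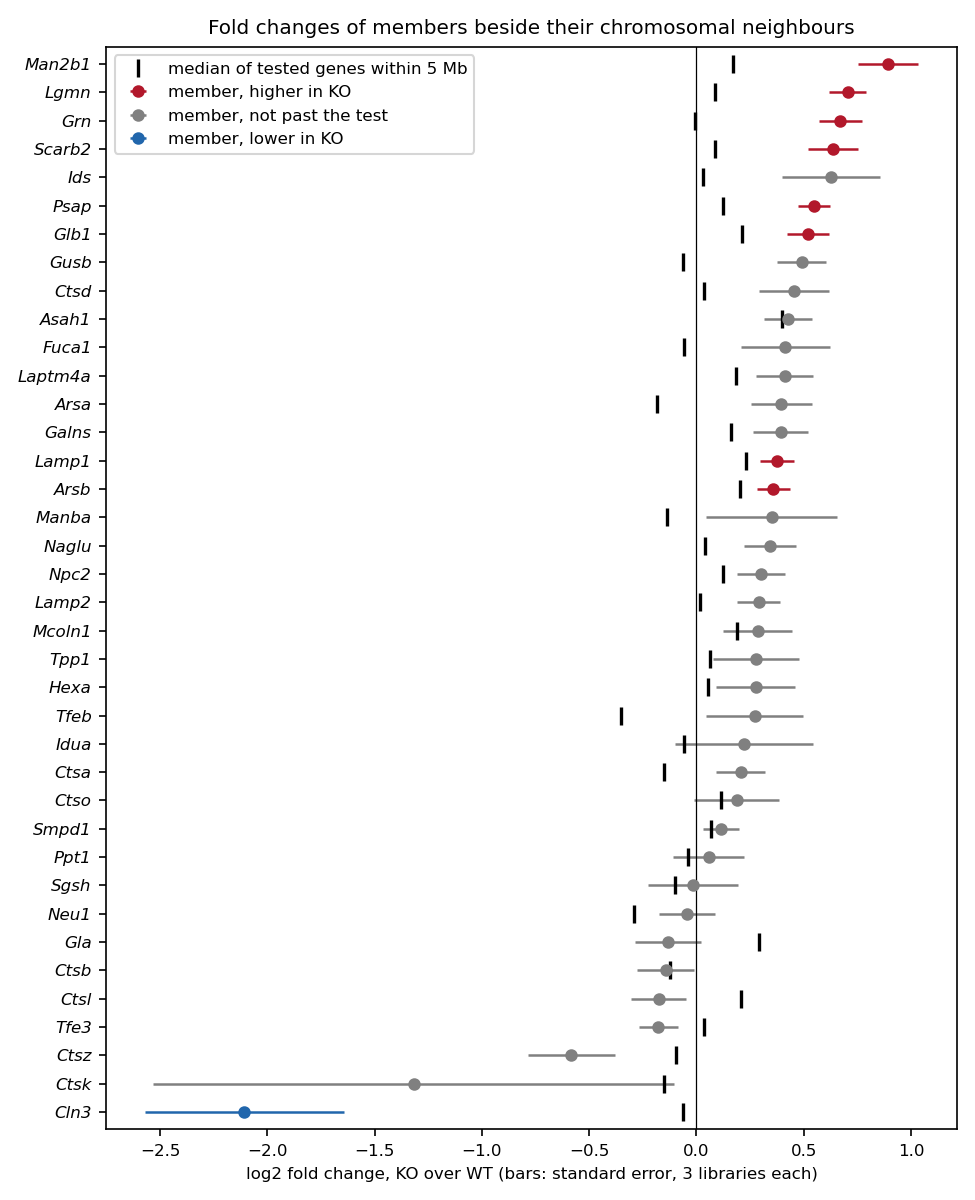
Log2 fold change of KO over WT (x axis) with its standard error for the 38 tested members, in order of size; black ticks give the median log2 fold change of the tested genes within 5 Mb. Man2b1, Lgmn, Grn and Scarb2 lie far right of their ticks, while Lamp1, Arsb and Asah1 lie closer to theirs. Tfeb, Ids, Arsa and Gusb, which did not pass the test, also lie far right of their ticks.

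The allele-assigned counts asked whether the balance of the parental copies differed. Of 37 members with enough of these counts, 12 had a changed allelic ratio in the edgeR model, 4 with a higher and 8 with a lower genome 1 share in KO. Among all 12984 genes tested, 23.0% were called. At 1000 or more counts the 95% Wilson interval of a share was at most 2.99 points to each side, counting error only. Members with a changed allelic ratio are set beside the median share of their neighbours within 5 Mb. Whether a member departs from its neighbours was not tested. Over the 33 autosomal members tested, a member lay a median of 6.72 percentage points from its neighbours, and 15 of them lay within 10 points in every library.

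On chromosome 7, Ctsd had a genome 1 share of 33.1%, 36.0% and 32.7% in KO 2, 9 and 22, against 60.7%, 62.4% and 62.7% in WT 1, 2 and 3 (adjusted p = 0.00144, log2 change of the allelic ratio -1.67 with SE 0.12). Its neighbours had 33.6%, 33.8% and 33.9% in KO 2, 9 and 22 and 60.1%, 60.9% and 61.1% in WT 1, 2 and 3. Smpd1 had 36.1%, 33.5% and 32.9% in KO 2, 9 and 22, against 60.2%, 62.5% and 63.8% in WT 1, 2 and 3 (adjusted p = 0.00149, log2 change of the allelic ratio -1.67 with SE 0.15), also within 10 points of its neighbours in every library. Tpp1, close to Smpd1 on the same chromosome, had 50.4%, 51.4% and 47.4% in KO 2, 9 and 22, against 75.1%, 74.6% and 73.6% in WT 1, 2 and 3 (adjusted p = 0.00162, log2 change of the allelic ratio -1.56 with SE 0.15). Its neighbours had 31.6%, 28.3% and 31.7% in KO 2, 9 and 22 and 56.5%, 55.6% and 56.6% in WT 1, 2 and 3, so Tpp1 stood above them in both groups.

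On chromosome 8, Lamp1 had 51.0%, 48.8% and 49.5% in KO 2, 9 and 22, against 60.7%, 60.7% and 60.4% in WT 1, 2 and 3 (adjusted p = 0.00740, log2 change of the allelic ratio -0.63 with SE 0.10), beside neighbours at 52.7%, 51.2% and 52.7% in KO 2, 9 and 22 and 62.7%, 61.7% and 63.1% in WT 1, 2 and 3. Asah1 shifted the same way (adjusted p = 0.0221, log2 change of the allelic ratio -0.59 with SE 0.13). So did Galns (adjusted p = 0.0237, log2 change of the allelic ratio -0.78 with SE 0.17). Averaged over libraries, Asah1 had 54.7% in KO and 64.5% in WT, beside neighbours at 47.7% and 58.0%. Galns averaged 38.0% in KO and 51.3% in WT, beside neighbours at 48.1% and 58.6%. Psap on chromosome 10 had 47.0%, 46.7% and 47.3% in KO 2, 9 and 22, against 36.4%, 36.6% and 36.7% in WT 1, 2 and 3 (adjusted p = 0.00593, log2 change of the allelic ratio 0.62 with SE 0.09), beside neighbours at 52.0%, 50% and 51.1% in KO 2, 9 and 22 and 38.9%, 39.5% and 38.8% in WT 1, 2 and 3. The shares of Psap were tight in both groups and did not overlap. On chromosome 12, Npc2 had 58.6%, 43.9% and 57.6% in KO 2, 9 and 22, against 74.8%, 73.7% and 74.4% in WT 1, 2 and 3 (adjusted p = 0.0125, log2 change of the allelic ratio -1.34 with SE 0.25). Its neighbours had 51.9%, 34.2% and 50.6% in KO 2, 9 and 22 and 64.4%, 65.4% and 65.2% in WT 1, 2 and 3. Lgmn, on the same chromosome, had 47.3%, 30.3% and 54.5% in KO 2, 9 and 22, against 65.8%, 64.6% and 66.5% in WT 1, 2 and 3 and was not past the test (adjusted p = 0.0559, log2 change of the allelic ratio -1.30 with SE 0.38). The neighbours of Lgmn had 50.1%, 35.9% and 50.4% in KO 2, 9 and 22. In WT 1, 2 and 3 they had 64.7%, 65.0% and 65.0%. On chromosome 9, Glb1 had 48.9%, 59.8% and 44.6% in KO 2, 9 and 22, against 34.3%, 31.9% and 35.7% in WT 1, 2 and 3 (adjusted p = 0.0403, log2 change of the allelic ratio 1.02 with SE 0.27), beside neighbours at 51.2%, 66.7% and 48.9% in KO 2, 9 and 22 and 39.4%, 41.4% and 41.5% in WT 1, 2 and 3.

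Ctsk stood far from its neighbours in KO 2 and KO 22. Its genome 1 share was 93.9%, 60% and 99.6% in KO 2, 9 and 22, against 37.9%, 37.3% and 40.1% in WT 1, 2 and 3 (adjusted p = 0.0355, log2 change of the allelic ratio 5.72 with SE 1.44), while the genes within 5 Mb had 70.2%, 65.3% and 74.8% in KO 2, 9 and 22 and 53.9%, 52.7% and 53.5% in WT 1, 2 and 3. Genome 2 gave 10, 4 and 4 counts in KO 2, 9 and 22, against 624, 819 and 682 counts in WT 1, 2 and 3. Genome 1 gave 153, 6 and 1135 counts in KO 2, 9 and 22, against 381, 488 and 456 counts in WT 1, 2 and 3. The genome 2 copy was thus low in all KO libraries, whereas the genome 1 copy was low in KO 2 and KO 9 and high in KO 22. The 95% Wilson intervals of the KO shares ran from 89.1% to 96.6% in KO 2, from 31.3% to 83.2% in KO 9, where only 10 counts were assigned, and from 99.1% to 99.9% in KO 22. Ctso, also on chromosome 3, had 76.3%, 74.2% and 68.3% in KO 2, 9 and 22, against 58.1%, 49.5% and 44.1% in WT 1, 2 and 3 over 167 to 205 counts, with intervals up to 7.40 points to each side (adjusted p = 0.0296, log2 change of the allelic ratio 1.40 with SE 0.33). The neighbours of Ctso had 71.9%, 65.7% and 77.1% in KO 2, 9 and 22. In WT 1, 2 and 3 they had 55.9%, 55.0% and 55.5%.

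Tfeb on chromosome 17 had 32.2%, 36.4% and 40% in KO 2, 9 and 22, against 63.9%, 62.1% and 59.8% in WT 1, 2 and 3 over 176 to 480 counts, with intervals up to 7.04 points to each side (adjusted p = 0.00649, log2 change of the allelic ratio -1.53 with SE 0.24). Its neighbours had 52.3%, 32.7% and 51.1% in KO 2, 9 and 22 and 56.4%, 58.9% and 57.1% in WT 1, 2 and 3, so Tfeb lay below them in KO 2 and KO 22 and close to them in KO 9. Genome 1 of Tfeb gave 92, 64 and 80 counts in KO 2, 9 and 22, against 280, 298 and 131 counts in WT 1, 2 and 3. Allele-assigned counts of Tfeb were 286, 176 and 200 in KO 2, 9 and 22, beside 1036, 917 and 768 gene counts. In WT 1, 2 and 3 they were 438, 480 and 219, beside 642, 639 and 1024 gene counts. The assigned part thus differed between libraries, and the genome 1 counts cannot be read as the level of that copy. Sgsh on chromosome 11 was not past the test (adjusted p = 0.773, log2 change of the allelic ratio 1.07 with SE 2.05) and had 100%, 30.9% and 66.9% in KO 2, 9 and 22, against 56.0%, 54.5% and 62.3% in WT 1, 2 and 3; all 446 allele-assigned counts of KO 2 came from genome 1, with a Wilson interval that starts at 99.1%, and its neighbours there were at 83.1%. Arsa and Ctsh had too few allele-assigned counts to be tested.

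**Figure D4:**
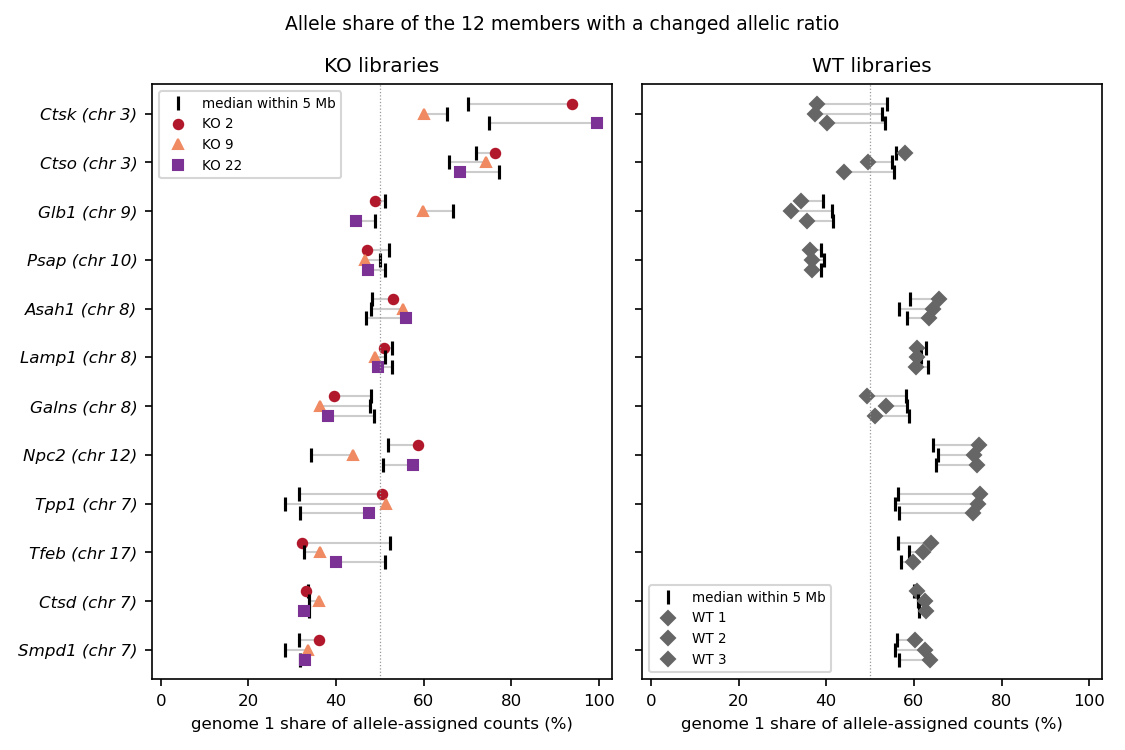
Genome 1 share of allele-assigned counts in percent (x axis) for the 12 members with a changed allelic ratio, in KO libraries on the left and WT libraries on the right; markers are the member and black ticks the median of genes within 5 Mb, joined by a line. Ctsd, Smpd1, Lamp1 and Psap lie near their ticks in both groups, while Ctsk lies above its ticks in KO 2 and KO 22 and below them in WT.

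The members that were higher in KO were also split by allele, as levels per 1000000 allele-assigned counts of the library, with no test of a single allele. These members were picked by total counts that include the same reads, so a difference on at least 1 allele is largely built in. The share of all genes that stand apart on an allele was not counted here. Psap was higher on both genomes in every KO library. Its genome 1 level was 1626, 1726 and 1625 in KO 2, 9 and 22, against 884, 912 and 925 in WT 1, 2 and 3. Its genome 2 level was 1831, 1971 and 1812 in KO 2, 9 and 22, against 1545, 1576 and 1595 in WT 1, 2 and 3. Grn and Man2b1 were also above WT on both genomes in every KO library. The genome 2 level of Lamp1 was 811, 769 and 704 in KO 2, 9 and 22, against 469, 482 and 477 in WT 1, 2 and 3, whereas its genome 1 level overlapped between the groups (846, 733 and 689 in KO 2, 9 and 22, against 723, 746 and 729 in WT 1, 2 and 3). Lgmn and Arsb likewise stood apart on genome 2 and overlapped on genome 1. Glb1 and Scarb2 stood apart on genome 1 and overlapped on genome 2. The neighbours' genome 1 share averaged 45.5% in KO and 64.9% in WT at Lgmn, and 55.6% in KO and 40.75% in WT at Glb1. It averaged 52.1% in KO and 54.9% in WT at Arsb, and 45.3% in KO and 44.4% in WT at Scarb2. The part of the neighbours' shares in these patterns was not tested. For Ctsd, which did not pass at the gene level, genome 2 was at 281, 386 and 263 in KO 2, 9 and 22, against 140.5, 137 and 131 in WT 1, 2 and 3 and genome 1 at 139, 217 and 128 in KO 2, 9 and 22, against 217, 229 and 221 in WT 1, 2 and 3.

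**Figure D5:**
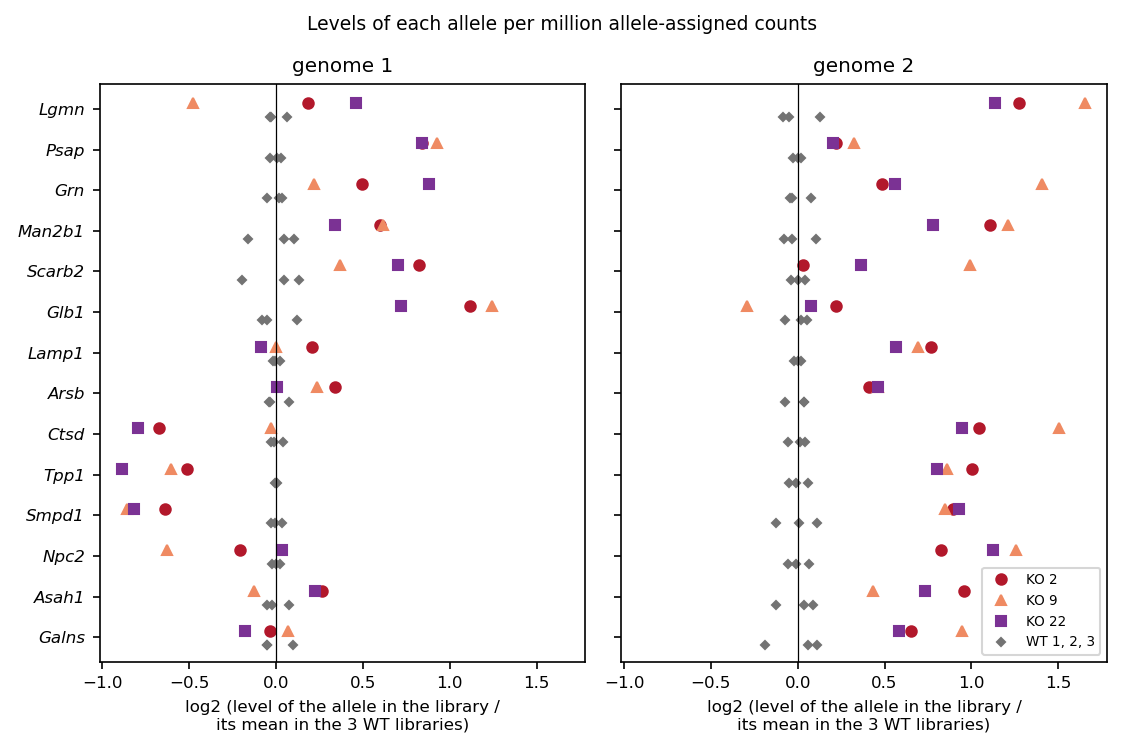
Log2 ratio of each allele's level per 1000000 allele-assigned counts to its mean in the WT libraries (x axis) for genome 1 on the left and genome 2 on the right; coloured markers are KO 2, 9 and 22 and grey diamonds the WT libraries. The rows are the 8 members higher in KO and 6 further members with a changed allelic ratio; for Ctsd, Tpp1 and Smpd1, genome 2 lies above WT and genome 1 at or below it.

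Other genes of the pathway were taken from 7 companion lists of 154 genes, of which 148 were tested, with 11 higher and 6 lower. Among all 16678 genes tested, 3.54% were called higher and 3.19% lower, and the median log2 fold change was 0.02. Of 26 other lysosomal hydrolases tested, 6 were higher and 2 lower, with a median log2 fold change of 0.18. Aga, which cleaves asparagine-linked sugars, had 57.3, 59.6 and 63.2 CPM in KO 2, 9 and 22, against 33.5, 36.8 and 36.6 CPM in WT 1, 2 and 3. For Aga the log2 fold change was 0.78 (SE 0.10, adjusted p = 0.0121). Lipa, lysosomal acid lipase, had 56.7, 64.9 and 60.2 CPM in KO 2, 9 and 22, against 38.5, 40.8 and 37.8 CPM in WT 1, 2 and 3. For Lipa the log2 fold change was 0.67 (SE 0.10, adjusted p = 0.0179). Ggh, Man2b2 and Prcp were also higher. Rnaset2a, a ribonuclease with a near-identical copy in the mouse that could share its reads, had 11.2, 12.3 and 11.4 CPM in KO 2, 9 and 22, against 35.0, 30.1 and 30.3 CPM in WT 1, 2 and 3. For Rnaset2a the log2 fold change was -1.42 (SE 0.12, adjusted p = 0.00462). Gm2a, an activator protein for ganglioside breakdown, had 0.851, 0.325 and 2.45 CPM in KO 2, 9 and 22, against 9.78, 11.8 and 10.8 CPM in WT 1, 2 and 3. For Gm2a the log2 fold change was -3.12 (SE 0.68, adjusted p = 0.0476).

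Of 24 lysosomal membrane proteins and transporters, 3 were higher and 0 lower: Ostm1 (adjusted p = 0.0336, log2 fold change 0.90 with SE 0.17), Slc29a3 (adjusted p = 0.0395, log2 fold change 0.65 with SE 0.13) and Tmem63a (adjusted p = 0.0454, log2 fold change 0.60 with SE 0.13). Of the 18 subunits of the V-ATPase, the proton pump that acidifies lysosomes, 0 were higher and 1 was lower, Atp6v1c1, with 77.6, 74.2 and 69.3 CPM in KO 2, 9 and 22, against 102, 104 and 99.6 CPM in WT 1, 2 and 3. For Atp6v1c1 the log2 fold change was -0.44 (SE 0.08, adjusted p = 0.0316). Of 20 genes of mannose 6-phosphate tagging and sorting, 0 passed the edgeR test in either direction; at an unadjusted p under 0.05 there were 5 higher and 1 lower, and DESeq2 called 2 higher and 0 lower. Of 30 autophagy genes, 2 were higher and 0 lower. Map1lc3b, which coats autophagosomes, had 129, 179.7 and 126 CPM in KO 2, 9 and 22, against 89.5, 92.3 and 90.9 CPM in WT 1, 2 and 3, and Ulk2, a kinase that starts autophagy, had 46.0, 60.9 and 51.1 CPM in KO 2, 9 and 22, against 32.7, 34.4 and 36.7 CPM in WT 1, 2 and 3. For Map1lc3b the log2 fold change was 0.70 (SE 0.15, adjusted p = 0.0447). For Ulk2 the log2 fold change was 0.64 (SE 0.13, adjusted p = 0.0410). Of 24 genes of TFEB relatives and mTORC1 nutrient sensing, 0 were higher and 2 lower, Mitf, given above, and Wdr24 of the GATOR2 complex (adjusted p = 0.0459, log2 fold change -0.71 with SE 0.15). In this list 0 were higher and 7 lower at an unadjusted p under 0.05, DESeq2 called 0 higher and 6 lower, and the median log2 fold change was -0.10. Among all 16678 genes tested, 4384 had an unadjusted p under 0.05 in either direction. DESeq2 called 1350 higher and 1231 lower of 29476 genes. Of 6 cathepsin inhibitors, only Cst6 passed, downward and at low level, with 18, 10 and 30 counts in KO 2, 9 and 22, against 104, 121 and 126 counts in WT 1, 2 and 3 (adjusted p = 0.0251, log2 fold change -2.55 with SE 0.42).

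Macrophages are rich in lysosomes, so their markers were read beside the members. Adgre1, Aif1, C1qa, C1qb, C1qc, Spi1 and Tyrobp were at 0 in all 6 libraries, and 2 of the 15 listed markers were tested, with 0 past the edgeR test, 1 at an unadjusted p under 0.05 and 1 called by DESeq2. Their summed level was 14.7, 17.4 and 24.9 CPM in KO 2, 9 and 22, against 11.8, 11.5 and 10.7 CPM in WT 1, 2 and 3, and Lyz2 was its leading gene, with 9.27, 8.60 and 22.5 CPM in KO 2, 9 and 22, against 6.22, 6.12 and 5.41 CPM in WT 1, 2 and 3. For Lyz2 the log2 fold change was 1.22 (SE 0.40, adjusted p = 0.115). Of 10 fibroblast markers, Col1a1, Col1a2 and Col3a1 were higher in KO and 7 did not pass. The summed level of the 10 was 25718, 29402 and 32567 CPM in KO 2, 9 and 22, against 16966, 16768 and 16739.6 CPM in WT 1, 2 and 3, and its part in the members' values was not tested. The keratinocyte, endothelial and adipocyte lists had 0 members past the edgeR test or called by DESeq2, and 1 keratinocyte marker had an unadjusted p under 0.05, and of the skeletal muscle list only Acta1 was higher. Their summed levels were 0.211 to 0.327 CPM in KO and 0.0813 to 0.195 CPM in WT for keratinocytes, 0.752 to 5.56 and 2.28 to 2.64 CPM for endothelial cells, 4.72 to 40.0 and 16.6 to 21.6 CPM for adipocytes, and 49.3 to 112 and 18.1 to 21.7 CPM for muscle.

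Some members lie over other genes in the annotation, and the sources used here do not give the strand setting of the counting, so shared reads cannot be told apart. Among the members past the test these are Glb1 with Tmppe on the same strand, and Lamp1 with Grtp1, Grn with Fam171a2 and Cln3 with Apobr on the opposite strand. Psap, Lgmn and Man2b1 overlap no other annotated gene, and Scarb2 and Arsb overlap only genes with at most 94 counts over all libraries.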

How the data were processed

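Per the labels' protocols, a sequencing company made the libraries from polyA-selected RNA. The deposited values are estimated counts, for genes and for transcripts over all reads, and for genes over reads assigned to genome 1, to genome 2 or to neither; the submitters' processing notes name HISAT2 2.1.0, StringTie 1.3.3 and the builds mm10 and GRCm38, without roles. Counts are called estimated because StringTie derives them from coverage; they are whole numbers and were not rounded further. Which strain is genome 1, and the annotation and strand setting of the counting, were not stated. Of 55487 genes, 55227 matched GENCODE M21, which gave positions and exon lengths. The split transcript table and 9 libraries without matched columns were not used here.

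From the counts, KO and WT were compared with edgeR 4.0.16 by its quasi-likelihood test (R 4.3.3, TMM scaling, filterByExpr with its defaults, Benjamini-Hochberg adjustment over all genes tested, called under 0.05). SE is the absolute log2 fold change over the square root of F. Allelic ratios used an edgeR model with library, allele and allele-by-group terms, where the mean was 20 or more allele-assigned counts. All adjusted p-values are edgeR's unless another tool is named. Neighbours are genes within 5 Mb, for shares those with at least 20 allele-assigned counts. Intervals are 95% Wilson intervals. A count of 0 allows 3 counts. Alternatives used DESeq2 1.42.0 and limma 3.58.1. Each test was tested on simulated data with the same spread in both groups, and recovery of added changes was scored. Those changes were larger than that of any member called higher in KO. False calls under the unequal spread of these data were not measured. The members and lists were chosen with earlier results of these data known. All 39 members are accounted for; values in every library are given for members past the test, X-linked members, the 8 highest per length, Tfeb and Tfe3, and further members were picked after their values were seen. Of each companion list up to 6 called genes are named, by p, except an item that is not reported here.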

Additional observations from a re-analysis of the deposited data

How the results depend on the processing

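Depth was alike in all libraries. The limits include the 3 libraries per group and their unequal spread, with a biological coefficient of variation of 0.378 in KO and 0.135 in WT. They also include that line and genotype cannot be told apart, and that a shared sequencing run is unsettled. The members higher in KO numbered 8, with 5 once chromosome medians were taken out and 4 without the filter on low counts. They numbered 10 with DESeq2, 8 with limma-voom and 8 with DESeq2 size factors, and 0 to 10 when 1 library was left out. Over all 16678 genes tested, 591 were higher, and 346 once chromosome medians were taken out. The genes higher numbered 665 with limma-voom, 576 with DESeq2 size factors and 22 to 1305 when 1 library was left out. Of 29476 genes, 197 were higher without the filter and 1350 with DESeq2. The single lower member, Cln3, became 0 with chromosome medians taken out and without the filter, and 0 to 1 with a library left out; without KO 2 the lower member was Ctsz in its place. Without any 1 WT library no member passed the edgeR test: adjusted p for the 8 then lay between 0.0923 and 0.222, and 11 to 14 members had an unadjusted p under 0.05. Of 17199 to 17234 genes tested, 2882 to 3002 had such a p. Companion genes higher in KO numbered 11, but 19 with DESeq2, 3 without the filter, and 0 to 20 with a library left out, the highest without KO 22. Those lower numbered 6, but 15 with DESeq2, 1 without the filter, and 1 to 11 with a library left out. Over all genes, 532 were lower, with 1231 by DESeq2, 199 without the filter, and 23 to 1177 with a library left out. Members with a changed allelic ratio numbered 12, and 6 to 13 with a library left out, the fewest without a WT library. The 1 transcript called became 0 without the filter, and 0 to 1 with a library left out. The cause of these changes was not tested. Log2 fold changes changed sign for 5 members that were past no test: Neu1 to 0.242 with chromosome medians taken out and -0.123 to 0.0147 with a library left out, Manba -0.0686 (without KO 9) to 0.549, Idua -0.120 (without KO 2) to 0.469, Sgsh -0.275 to 0.116 and Ppt1 -0.156 to 0.165. DESeq2 also called Gusb and Asah1. No paired analysis was possible because the labels do not pair KO with WT libraries. The number 2, found in both groups, does not mark a pair.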
